A study of Mus musculus with 3 samples.

Results

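The T cell receptor (TCR) complex and its signaling chains were followed through 9 genes chosen by symbol: Trac, Trbc1, Trbc2, Trdc, Cd3d, Cd3e, Cd3g, Cd247 and Fcer1g. All 9 were found among the 30406 gene identifiers that the 3 libraries share. The cells are CD8-depleted thymocytes from the sort gate TCRβ+CD1d-tet+CD24-NK1.1-, which takes invariant NKT (iNKT) cells and leaves out those with surface NK1.1. Each condition is 1 library. The C57BL/6 library is from mice without bone marrow transplantation (BMT), labelled 7w. The other 2 are from C57BL/6 × BALB/c F1 recipients that had been lethally irradiated and given T cell-depleted C57BL/6 bone marrow, either alone (BM only, without graft-versus-host disease, GvHD) or with donor spleen cells (BM + Spl, with chronic GvHD), both labelled 16w, 9w after BMT. Mice were pooled within each library, so no value has a replicate and no test was run. All intervals are 95% and cover counting error only.

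An αβ TCR binds its ligand but cannot signal by itself. It is assembled with CD3δ, CD3ε and CD3γ (Cd3d, Cd3e, Cd3g) and with a dimer of the ζ chain (Cd247), whose cytoplasmic tails carry immunoreceptor tyrosine-based activation motifs (ITAMs) that Lck phosphorylates and Zap70 then binds. The Fc receptor γ chain (Fcer1g) is a relative of ζ that serves Fc and NK receptors and can stand in for ζ in some T cells. In iNKT cells an invariant α chain, joined to the Trac constant region, pairs with a β chain that ends in Trbc1 or Trbc2 and recognizes lipid on CD1d, and Trdc encodes the constant region of the δ chain of γδ T cells.

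The ITAM-coding stretches are shown because the comparisons below turn on Cd247 and Fcer1g, the chains that can replace each other. A search for a tyrosine followed after 2 residues by leucine or isoleucine, and repeated 6 to 8 residues later, was made in the GENCODE M21 coding sequences (GRCm38) of the 5 signaling chains. It found 3 matches in Cd247 and 1 each in Cd3d, Cd3e, Cd3g and Fcer1g. Capitals mark the codons of the paired tyrosines, and the stretches are spliced, 5′ to 3′ on the coding strand.
Cd3d, chr9:44986095-44986311, plus strand: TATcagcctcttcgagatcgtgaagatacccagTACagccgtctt
Cd3e, chr9:44999549-45000440, minus strand: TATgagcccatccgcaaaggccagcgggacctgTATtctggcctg
Cd3g, chr9:44970735-44971268, minus strand: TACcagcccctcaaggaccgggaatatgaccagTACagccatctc
Cd247 ITAM 1, chr1:165856451-165857454, plus strand: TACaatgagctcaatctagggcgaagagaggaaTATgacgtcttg
Cd247 ITAM 2, chr1:165858473-165859260, plus strand: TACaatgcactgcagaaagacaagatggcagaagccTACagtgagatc
Cd247 ITAM 3, chr1:165859819-165861042, plus strand: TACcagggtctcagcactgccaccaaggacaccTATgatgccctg
Fcer1g, chr1:171229889-171230072, minus strand: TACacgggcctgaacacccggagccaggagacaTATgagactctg

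Trbc1 and Trbc2 start 8512 bp apart on chromosome 6, and their coding sequences of 518 bases are 95.6% identical. In the 375 bases of the first exon they differ at 1 base, and in the other 143 they differ at 22. The longest run without a difference is 259 bases, and a read inside it cannot be given to either gene, so the split between these genes is uncertain. The stretches after the first exon are shown with the bases that differ in capitals, since only reads over such bases separate the copies within the coding sequence.
Trbc1, chr6:41539114-41539662, plus strand, spliced: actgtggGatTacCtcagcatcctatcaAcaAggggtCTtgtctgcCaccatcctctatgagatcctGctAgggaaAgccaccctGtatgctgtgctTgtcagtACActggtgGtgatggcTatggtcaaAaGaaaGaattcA
Trbc2, chr6:41547610-41548178, plus strand, spliced: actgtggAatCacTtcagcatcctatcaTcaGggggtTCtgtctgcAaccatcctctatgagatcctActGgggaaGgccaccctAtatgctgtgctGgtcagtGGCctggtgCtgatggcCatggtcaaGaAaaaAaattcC

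The 3 CD3 genes lie together on chromosome 9, where Cd3d and Cd3g start 1355 bp apart on opposite strands and Cd3e starts 27841 bp from Cd3d. Cd247 (chr1:165788681-165877277, plus strand) and Fcer1g (chr1:171229572-171234365, minus strand) share chromosome 1, and Trac (chr14:54220521-54224206) starts 77670 bp from Trdc on chromosome 14. In this annotation Cd3d, Cd3g, Fcer1g, Trac, Trbc1 and Trbc2 overlap no other gene. Cd3e and Trdc each overlap 2 and Cd247 overlaps 6. On the same strand, where reads may be shared, Cd3e overlaps 1, Trdc 0 and Cd247 1.

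After the study's cell filter (over 200 and under 6000 genes, under 10% mitochondrial UMIs) the C57BL/6 library kept 4434 cells, BM only kept 5970 and BM + Spl kept 5557, with medians of 12086.5, 4740 and 6495 UMIs (unique molecules) per cell. Cells were placed by ordered marker gates in which no member was used, into NKT1, NKT2, intermediate, NKT17, cycling, Treg, CD8 and a remainder, after B cell, plasmacytoid dendritic and myeloid gates. The NKT1 gate held 1245, 2728 and 893 cells in C57BL/6, BM only and BM + Spl, and the NKT2 gate held 1594, 807 and 1391. The transplant libraries shared 43 barcodes with each other and none with C57BL/6. The labels name both 3′ and 5′ kits. TCR β V segments gave 1047 UMIs in all of C57BL/6 against 52355 in BM only and 72355 in BM + Spl, and the matrix headers name different Cell Ranger versions. For this reason levels in C57BL/6 stand beside the others and enter no ratio with them, since kit, software, age and host cannot be told apart.

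The label of the cells, NKT, was checked on V segments. Cells were called iNKT by V beta where at least 80% of their V beta UMIs came from Trbv1, Trbv12-2, Trbv13-1, Trbv13-2, Trbv13-3 or Trbv29, and other where at most 20% did. In the NKT2 gate 94.9% of assigned BM only cells and 93.6% of assigned BM + Spl cells were iNKT by V beta. In the NKT1 gate this share was 90.7% in BM only but 40.3% in BM + Spl, in the NKT17 gate it was 65.9% and 40%, and in the Treg gate 29.8% and 27.2%. Most NKT1-gated and NKT17-gated cells of BM + Spl with an assigned V beta thus went against the NKT label, and some results of these gates are given below also by V beta. Other T cells use these segments too, as the Treg gate and the CD8 gate (37.4% in BM only and 36.6% in BM + Spl) show. Cells called iNKT by V beta can therefore include other T cells, and the split does not remove them. The C57BL/6 library could hardly be checked in this way. There 1120 of 1245 NKT1-gated and 1240 of 1594 NKT2-gated cells had no V beta UMI. Of the assigned cells of these gates, 91.0% and 89.4% were iNKT by V beta.

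CD3 transcripts were found in nearly every gated T cell. At least 1 Cd3d, Cd3e or Cd3g UMI was seen in 4412 of 4414 T cells in C57BL/6, in 97.8% in BM only and in 98.8% in BM + Spl. Their summed level, as CPM (UMIs of a gene scaled by all UMIs of the gated cells), was 2550.0 in C57BL/6, 3512 in BM only and 3395 in BM + Spl. The plasmacytoid dendritic gate, which should lack these chains, held 408 CPM in BM only (21.7% of 207 cells with a UMI, median depth 6689). In BM + Spl it held 706 CPM (25.6% of 430 cells, median depth 7060). CD3 values up to these levels were read as background. This is a high limit, since most of it came from cells with a V beta UMI. The 172 and 334 cells of the gate without one held 25.3 and 26.1 CPM. In C57BL/6 only 17 cells entered that gate, and they held CD3 at a T cell level, 2127 CPM.

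**Figure D1:**
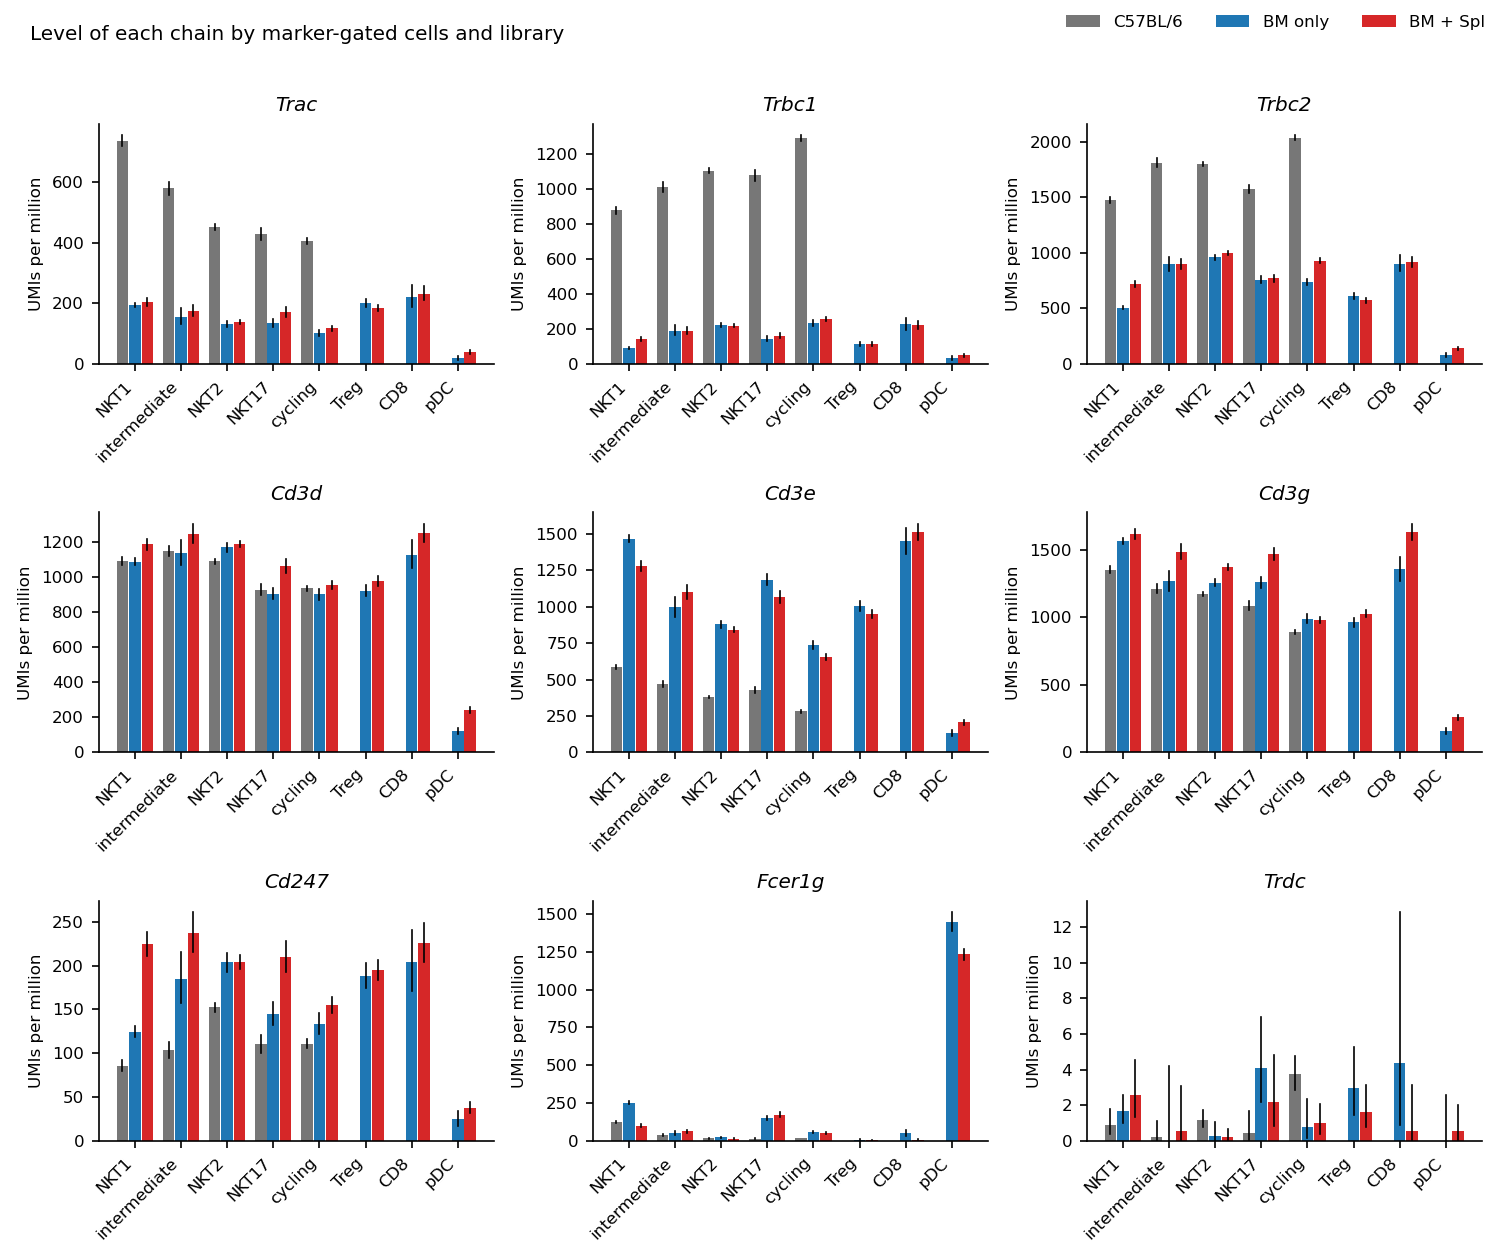
Level of each chain in CPM (y axis) by marker gate (x axis) and library, with 95% Poisson intervals as black lines; gates with fewer than 50 cells are left out, and pDC is the plasmacytoid dendritic gate. Cd3e and Trac are lower in NKT2 than in NKT1 in each library, Cd247 of the NKT1 gate stands at 124 in BM only and 225 in BM + Spl, and Fcer1g among T cells is highest in the NKT1 gate of BM only, at 252.

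Within each library the UMI shares of single chains differed between NKT2-gated and NKT1-gated cells in both directions, not all together. Cd3e, which sits in both CD3 heterodimers, stood at 586 CPM in NKT1 and 382 in NKT2 of C57BL/6, at 1467 and 879 in BM only, and at 1280.5 and 842 in BM + Spl. NKT2 was lower in each library, by log2 ratios of -0.62 (interval -0.67 to -0.57), -0.74 (-0.78 to -0.70) and -0.60 (-0.65 to -0.56). These are shares of all UMIs, and NKT2-gated cells were deeper. Their medians were 13726, 8157 and 9081 UMIs, against 6570, 4268 and 4448 in NKT1. Counted as UMIs per cell, Cd3e was higher in NKT2 in each library. Without ribosomal, mitochondrial and V, D and J genes in the total, the C57BL/6 and BM + Spl ratios were -0.55 and -0.49, under 1.5-fold, and the BM + Spl ratio was also under it with median-ratio scaling (-0.58) and as a mean over cells (-0.57). Cd3g was lower in NKT2 by smaller amounts, with log2 ratios of -0.21, -0.32 and -0.24. Cd3d, which shares its locus with Cd3g, hardly differed, with -0.00, 0.11 and 0.00.

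Past 1.5-fold among genes with at least 200 UMIs in the pair of gates were 1 member higher and 3 lower of 8 in C57BL/6, 3 and 2 of 8 in BM only, and 1 and 2 of 8 in BM + Spl. Of all genes tested, 9.99% were higher and 12.1% lower past that fold in C57BL/6, 11.3% and 15.5% in BM only, and 10.1% and 15.1% in BM + Spl. Trdc never reached 200 UMIs.

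The α and β constant genes moved apart. Trac was lower in NKT2 in each library, 453 CPM against 737 in C57BL/6, 132 against 195 in BM only and 137 against 204 in BM + Spl, with log2 ratios of -0.70, -0.57 and -0.57. The C57BL/6 ratio was -0.58, under 1.5-fold, in thinned cells. As with Cd3e, UMIs of Trac per cell were higher in the deeper NKT2-gated cells of each library. Trbc2 was higher in NKT2, at 1798 against 1473 in C57BL/6, 959 against 505 in BM only and 997 against 721 in BM + Spl. The log2 ratios of Trbc2 were 0.29 (0.26 to 0.32), 0.93 (0.88 to 0.98) and 0.47 (0.41 to 0.52). Trbc1 went the same way, with 0.33, 1.30 and 0.60. For both β genes the BM only interval lay above those of the other libraries. Among iNKT V beta cells the BM + Spl ratios were -0.67 for Trac, past 1.5-fold, 0.32 for Trbc2 and 0.60 for Trbc1.

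**Figure D2:**
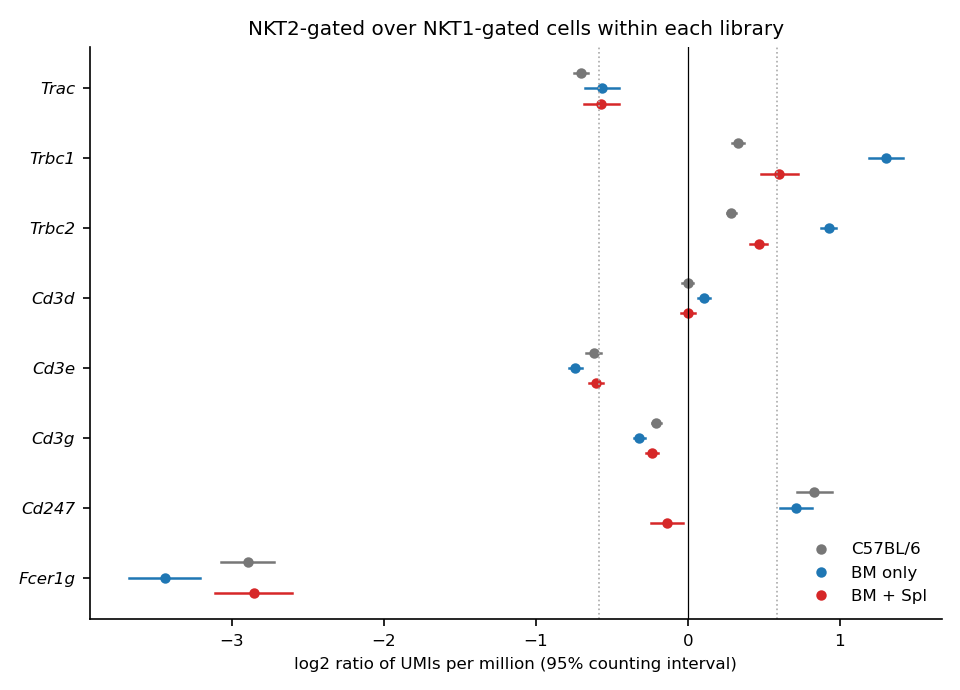
NKT2-gated over NKT1-gated cells within each library as log2 ratio of CPM (x axis) for 8 chains (y axis); points are ratios, lines 95% counting intervals and dotted lines 1.5-fold. Cd3e, Trac and Fcer1g lie left of 0 in each library, the β genes right of 0, and Cd247 lies at 0.83 in C57BL/6, 0.71 in BM only and -0.14 in BM + Spl.

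The ζ chain and the Fc receptor γ chain separated the gates in opposite directions in C57BL/6 and BM only. Cd247 stood at 85.5 CPM in NKT1 and 152 in NKT2 of C57BL/6, at 124 and 204 in BM only, and at 225 and 204 in BM + Spl. NKT2 was thus higher in C57BL/6 and BM only, by log2 ratios of 0.83 (0.72 to 0.95) and 0.71 (0.61 to 0.82), and not in BM + Spl, at -0.14 (-0.24 to -0.03). In iNKT V beta cells of BM + Spl the ratio was -0.00 (-0.16 to 0.16).

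Fcer1g stood at 122 CPM in NKT1 and 16.4 in NKT2 of C57BL/6, at 252 and 23.3 in BM only, and at 100.01 and 13.8 in BM + Spl. It was lower in NKT2 in each library, with log2 ratios of -2.89 (-3.07 to -2.72), -3.44 (-3.68 to -3.21) and -2.86 (-3.11 to -2.61), the widest gap of the 8 members with enough UMIs. Of the sum of Fcer1g and Cd247 UMIs, Fcer1g made up 58.8% in NKT1 and 9.73% in NKT2 of C57BL/6, 67.0% and 10.2% in BM only, and 30.8% and 6.34% in BM + Spl. The intermediate gate, cells with like amounts of NKT1 and NKT2 marker UMIs, was at 27.7% in C57BL/6 and 21.6% in BM only, between NKT1 and NKT2, and at 20.8% (17.4 to 24.4) in BM + Spl. Without cells that lack a CD3 UMI the NKT1 share of BM + Spl was 20.1% (18.0 to 22.4), near that of the intermediate gate. The Fcer1g ratio of NKT2 over NKT1 in BM + Spl was then -2.06, and in iNKT V beta cells it was -2.46. This NKT1 share mixes V beta classes that differed. NKT1-gated cells of BM + Spl with an iNKT V beta stood at 28.6% (24.7 to 32.8), above the intermediate gate, and those of other V beta at 9.22%.

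The comparison of BM + Spl with BM only asks how the chains differed between recipients with and without spleen cells in the graft, on the same host background. In all T cells the summed CD3 level was nearly the same, with a log2 ratio of -0.05 (-0.06 to -0.04), and Cd3e was the CD3 chain that was lower, at 959 against 1149.5 CPM (-0.26). Cd247 was higher, at 205 against 158 CPM (0.37, 0.32 to 0.42), Trbc1 at 201 against 155 (0.37) and Trbc2 at 874 against 698 (0.32). Fcer1g was the member past 1.5-fold, at 42.3 against 126 CPM (-1.57, -1.66 to -1.49), where 4.13% of 10243 genes were higher and 5.61% lower. These levels over all T cells also follow the mix of gates, since NKT1-gated cells made up 45.7% of kept cells in BM only and 16.1% in BM + Spl.

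Within the NKT1 gate the summed CD3 level again differed little, 4122 CPM in BM only and 4088 in BM + Spl (log2 ratio -0.01, -0.04 to 0.01). Cd247 stood at 124 in BM only and 225 in BM + Spl, 1.81-fold higher (0.85, 0.74 to 0.97). Fcer1g stood at 252 and 100.01, a log2 ratio of -1.34 (-1.48 to -1.19). Of its UMIs, 62 of 3059 in BM only and 201 of 463 in BM + Spl came from the 16 and 13 cells of the gate without a CD3 UMI. Without those cells, an alternative chosen after seeing the data, Fcer1g stood at 248 and 57.6 CPM (-2.11, -2.29 to -1.92) and Cd247 at 125 and 228 (0.87). Trbc1 was higher by 0.66 (0.52 to 0.80) at 144 against 90.7 CPM, while Trac at 204 against 195 was not (0.06, -0.05 to 0.17). Trbc2 was also higher, within 1.5-fold, by 0.51 (0.45 to 0.58) at 721 against 505 CPM. The Trbc1 and Trbc2 intervals overlap, and the split of reads between these genes is uncertain. With a stricter gate Trbc1 stood at 0.55, under 1.5-fold, and Fcer1g at -0.96. Of the 8 members with 200 UMIs, 25% were past 1.5-fold higher and 12.5% lower, beside 7.77% and 7.74% of all 7249 genes. With so few members these shares rest on 3 genes.

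NKT1-gated cells were also split by V beta, an alternative chosen after seeing the data. The iNKT V beta class can still hold other T cells, above all in BM + Spl, where most assigned cells of the gate had another V beta. In that library 40.3% of assigned NKT1-gated cells had an iNKT V beta, beside 36.6% in the CD8 gate and 27.2% in the Treg gate. Other T cells could thus make up much of the class there. Their number was not estimated. In iNKT V beta cells, Cd247 was at 121 CPM in BM only (2216 cells) and 202 in BM + Spl (327 cells), with a log2 ratio of 0.74 (0.56 to 0.91), and Fcer1g at 256 and 81.0, with -1.66 (-1.92 to -1.42). Trbc1 (0.76) and Trbc2 (0.70) were also past 1.5-fold there, where 6.12% of genes were higher and 8.75% lower. Each lost that call in 1 alternative, Trbc1 with a stricter gate (0.57) and Trbc2 in thinned cells (0.58). In cells of other V beta, Cd247 was at 149 and 242 CPM (0.71, 0.44 to 0.98) and Fcer1g at 90.9 and 24.6 from 90 and 58 UMIs, too few for the filter. Trbc1 (0.29, -0.02 to 0.61) and Trbc2 (0.20, 0.06 to 0.33) were within 1.5-fold in these cells, so 1 member was past the fold higher and none lower of 7. In that comparison 7.36% of genes were higher and 4.53% lower past the fold.

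**Figure D3:**
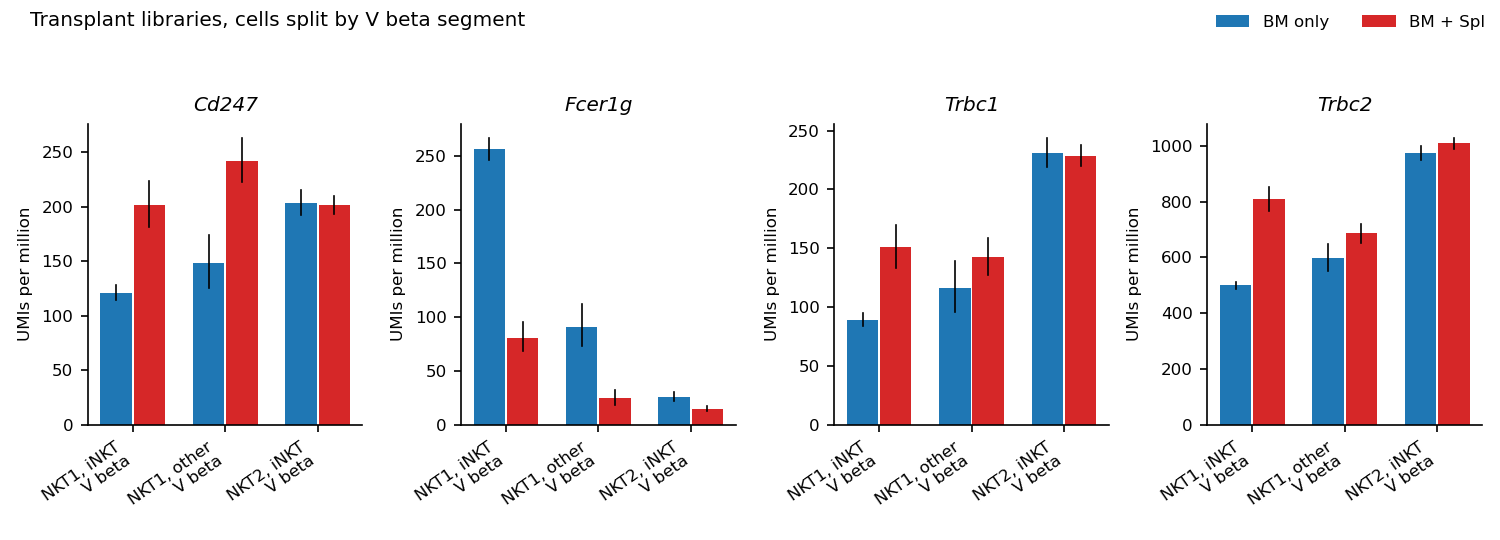
CPM (y axis) of 4 chains in BM only and BM + Spl for NKT1-gated cells with an iNKT V beta, NKT1-gated cells with another V beta and NKT2-gated cells with an iNKT V beta (x axis), with 95% Poisson intervals as black lines. In both NKT1 classes Cd247 is higher and Fcer1g lower in BM + Spl, while in NKT2 cells Cd247 is 204 and 202.

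The NKT1-gated cells of BM + Spl differed from those of BM only in other markers too. Cd4 was at 36.1 CPM in BM only and 235 in BM + Spl, and the inhibitory receptor Lag3 at 8.41 and 272. The 11 genes of the NKT1 gate list, all detected, summed to 6480.2 CPM in BM only and 3350.4 in BM + Spl. In cells of iNKT V beta the sums were 6645 and 3357, and in those of other V beta 4412 and 3130. The part of this shift in the Cd247 and Fcer1g values was not tested, and fewer cells of a kind and less RNA per cell cannot be told apart in summed counts.

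NKT2-gated cells of the transplant libraries hardly differed in these chains. Cd247 was at 204 CPM in both (0.00, -0.09 to 0.10), summed CD3 at 3306 in BM only and 3405 in BM + Spl (0.04, 0.02 to 0.07), and Trbc2 at 959 and 997 (0.06). Only Fcer1g was past the fold, at 23.3 and 13.8 CPM from 159 and 181 UMIs (-0.75, -1.07 to -0.44), where 0.433% of 7385 genes were higher and 0.948% lower. This Fcer1g difference did not last with cells thinned to 3000 UMIs, at 0.22 (-0.38 to 0.84).

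In the NKT17, cycling and Treg gates none of the 8, 8 and 7 members with enough UMIs was past 1.5-fold. For Fcer1g in NKT17 this holds only with the cells that lack a CD3 UMI. Those cells gave 336 of its 480 UMIs in BM only and 411 of 473 in BM + Spl. In NKT17-gated cells with a CD3 UMI it was lower in BM + Spl past 1.5-fold, at 49.3 CPM in BM only and 24.0 in BM + Spl. Of all genes tested 4.93% were higher and 3.88% lower past that fold in NKT17, 0.818% and 1.16% in cycling cells, and 1.51% and 3.27% in Treg. Cd247 in NKT17-gated cells was at 145 CPM in BM only and 209.9 in BM + Spl (0.54, 0.36 to 0.72), with 165 and 228 in those of iNKT V beta and 115 and 221 in those of other V beta. In Treg-gated cells it was at 188 and 195 (0.05, -0.09 to 0.19) and in CD8-gated cells at 204 and 226 (0.15, -0.13 to 0.44). In cycling cells Trbc2 was at 741 and 930.4 CPM (0.33, 0.26 to 0.39). The lowest Cd247 level among the T cell gates was that of NKT1 in BM only, with cycling cells next at 134, where the intervals meet, and in BM + Spl it was that of cycling cells at 155.

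**Figure D4:**
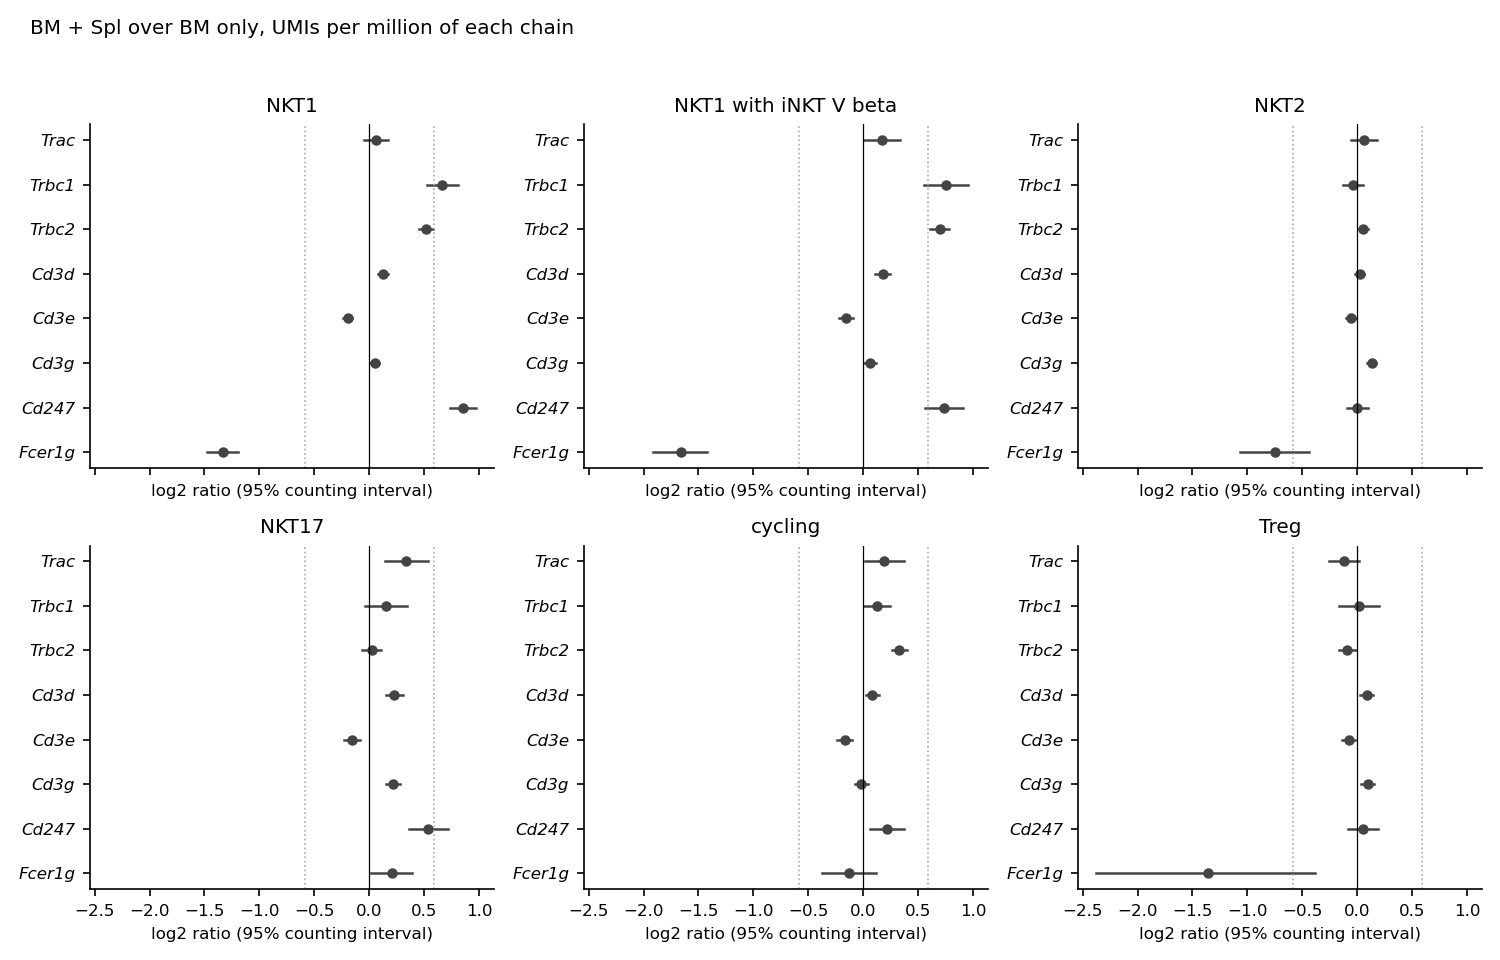
BM + Spl over BM only as log2 ratio of CPM (x axis) of 8 chains (y axis) in 6 sets of gated cells; points are ratios, lines 95% counting intervals and dotted lines 1.5-fold. Cd247 lies at 0.85 and Fcer1g at -1.34 in NKT1, while in NKT2 the 7 chains other than Fcer1g lie between -0.06 and 0.13.

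Fcer1g was counted by cell as well, since other blood cells use it. It was found in 23.2% of NKT1-gated cells in C57BL/6, 31.9% in BM only and 6.05% in BM + Spl, and in 5.27%, 4.09% and 3.38% of NKT2-gated cells. With each cell thinned to 3000 UMIs the NKT1 shares were 18.0% (15.9 to 20.3) of 1242 cells, 30.1% (28.1 to 32.1) of 2162 and 5.68% (4.14 to 7.58) of 757. In Treg-gated cells, taken as T cells that should lack it, the share was 1.63% in BM only and 1.03% in BM + Spl at median depths of 4590.5 and 5905 UMIs, against 4268 and 4448 in the NKT1 gate.

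Cells with Fcer1g in the NKT1 gate of BM only were T cells by their CD3, with a CD3 UMI in 99.2% of 869 cells and 3961 CPM of CD3 against 4204 in cells without Fcer1g. Their Cd247 level was 117 CPM, against 128 in cells without Fcer1g, so both chains were measured in the same group of cells. In C57BL/6 the Cd247 levels were 82.9 and 86.3. The 54 cells with Fcer1g in BM + Spl were less uniform, with a CD3 UMI in 83.3%. A Tyrobp UMI was seen in 31.5% of them, against 12.7% in BM only. Their CD3 was at 3109 CPM against 4167 in the 839 cells without Fcer1g, and their Cd247 at 101 against 235. Of the 54, 28 had an iNKT V beta and 11 another V beta, and all of these had a CD3 UMI. Tyrobp was found in 3.57% and 27.3% of them. Cd247 was at 94.3 CPM in the 28, against 213 in iNKT V beta cells without Fcer1g. In the 11 it was at 171, against 245.

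Tyrobp, the DAP12 adaptor of NK and myeloid cells, was counted beside it. Per Tyrobp UMI there were 20.9 Fcer1g UMIs in NKT1-gated C57BL/6 cells, 5.74 in BM only and 2.27 in BM + Spl, against 0.247 and 0.198 in plasmacytoid dendritic cells of the transplant libraries. In iNKT V beta cells of the NKT1 gate the ratio was 8.29 in BM only and 48 in BM + Spl, the last from 3 Tyrobp UMIs. The 8 plasmacytoid dendritic markers summed to 73.3 CPM (6 detected, Cd300c and Spib at 0) in NKT1-gated BM only cells and 130 (6 detected, Siglech and Cd300c at 0) in BM + Spl. The 13 myeloid markers summed to 166 CPM (10 detected, C1qa, C1qc and Clec9a at 0) in BM only and 349 (8 detected, Lyz2, Csf1r and the C1q genes at 0) in BM + Spl. By V beta the myeloid sum was 164 and 249 CPM in iNKT cells, and 160 and 404 in cells of other V beta. All 484 BM + Spl cells of other V beta had a CD3 UMI. Cells with 3 or more markers of either set had been gated out before. The part of these markers in the Fcer1g values was not tested.

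A small set of cells passed the T cell gates without a CD3 UMI, 125 in BM only and 60 in BM + Spl. Their median depths were 1456 and 3483 UMIs. In the NKT2 gate there were 11 and 4, with no Fcer1g UMI. In the NKT1 gate there were 16 and 13, with median depths of 1470 and 4883. These held 1670.2 and 2501 CPM of Fcer1g and 2182 and 2028 of Tyrobp, with a Tyrobp UMI in 7 and 10 cells. In the NKT17 gate there were 39 and 20 such cells, with 1279 and 2848 CPM of Fcer1g. Fcer1g over the whole NKT17 gate, 151 and 174 CPM, was 35.8 and 5.39 in its iNKT V beta cells, and those cells gave 66 of 480 and 6 of 473 of its UMIs. In NKT17-gated cells with a CD3 UMI Fcer1g stood at 49.3 CPM in BM only and 24.0 in BM + Spl.

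The β constant genes were found in unlike proportions. Trbc1 gave 38.2% (38.0 to 38.4) of Trbc1 and Trbc2 UMIs in C57BL/6 T cells, 18.2% (17.7 to 18.6) in BM only and 18.7% (18.3 to 19.0) in BM + Spl. Among cells with at least 5 such UMIs, 45.5% of 4290 C57BL/6 cells held at most 20% Trbc1 and 5.73% at least 80%, with 48.8% mixed. In BM only the shares were 68.4%, 1.79% and 29.8% of 1839 cells, and in BM + Spl 66.1%, 0.938% and 32.9% of 2559 cells. A rearranged β chain carries a single constant region, and reads inside the run shared by these genes cannot be given to either. The cause of the mixed cells was not tested. Kit, software, age and host cannot be told apart in the difference between C57BL/6 and the transplant libraries.

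In C57BL/6 the Trbc1 shares by cell had a lower mode below 10% (35.8% of cells) and an upper mode between 50% and 70%, and few cells above 90% (1.07%). In the transplant libraries no second group stood between 50% and 70%. Between NKT1 and NKT2 gates the share differed by little within a library, 37.3% and 38.0% in C57BL/6, 15.2% and 18.9% in BM only, and 16.6% and 18.0% in BM + Spl.

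**Figure D5:**
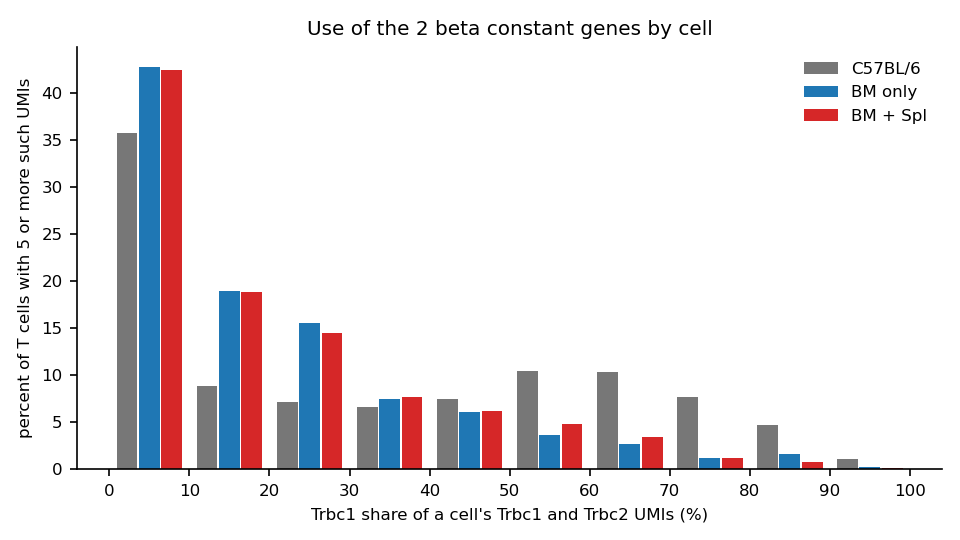
Percent of T cells (y axis) by the Trbc1 share of their Trbc1 and Trbc2 UMIs in bins of 10 percentage points (x axis), for cells with at least 5 such UMIs in each library. C57BL/6 has 35.8% of cells below 10% and a second group between 50% and 70%, while the transplant libraries fall from 42.7% and 42.4% in the first bin.

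Trdc was near absent. At least 1 UMI was found in 42 of 4414 C57BL/6 T cells (0.952%, 0.687 to 1.28), 32 of 5636 in BM only (0.568%, 0.389 to 0.801) and 24 of 5024 in BM + Spl (0.478%, 0.306 to 0.710), at 1.73, 1.61 and 1.06 CPM. In BM only and BM + Spl the B cell gates gave 1 cell of 80 and 1 of 65, the plasmacytoid dendritic gates 0 of 207 and 1 of 430, and the myeloid gates 0 of 47 and 0 of 38. Their exact upper limits, from 1.29% to 9.25%, lie above the T cell shares of these libraries, so a level over background was not detectable at these cell numbers. Trac UMIs were also present in 37, 14 and 17 of those T cells, and 4 C57BL/6 cells, all in the cycling gate, and 2 BM + Spl cells held 5 or more Trdc UMIs.

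A list of 57 other genes of TCR signaling was set beside the members. In NKT1-gated cells 12% of the 50 with enough UMIs were past 1.5-fold higher in BM + Spl and 14% lower, with a median log2 ratio of 0.00, beside 7.77% and 7.74% and a median of 0.03 over all genes. In NKT2-gated cells none of 48 was past the fold, beside 0.433% higher and 0.948% lower of all genes. Of the 7 kinases with enough UMIs in the NKT1 gate, 0 were past the fold higher and 2 lower, with a median log2 ratio of -0.24. Lck and Zap70, which act on these chains, were within 1.5-fold. Lck was at 650.4 CPM in BM only and 692 in BM + Spl (0.09, 0.03 to 0.15) and Zap70 at 262 and 301 (0.20, 0.11 to 0.29). The Tec family kinases Txk (107 and 31.1 CPM, -1.79) and Tec (28.5 and 14.9, -0.94) were lower.

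Among the adaptors, Themis, which tunes TCR signals during thymic selection, was at 10.6 CPM in BM only and 102 in BM + Spl (3.28, 2.99 to 3.57), and Sh2d1a, the SAP adaptor that iNKT development needs, at 86.1 and 170.2 (0.98). Pag1 (155 and 79.1, -0.97) and Lax1 (188 and 105, -0.84), membrane adaptors that dampen signals, were lower. Of the 14 brakes, 4 were past the fold higher: Cd5 (155 and 252, 0.70), Ubash3a (49.3 and 87.9, 0.83), Ubash3b (35.2 and 77.8, 1.14) and Sla (83.2 and 128, 0.62). The phosphatase Ptpn6 was lower (426 and 249, -0.77), as were the γ constant genes Tcrg-C2 (-0.90) and Tcrg-C4 (-1.19). In iNKT V beta cells of the gate Txk, Tec, Sh2d1a, Pag1, Ubash3b, Cd5, Tcrg-C2 and Tcrg-C4 were also past the fold. Lax1 (-0.56), Ptpn6 (-0.58), Ubash3a (0.46) and Sla (0.45) were not, and Themis (68.6 against 6.96 CPM) had 122 and 70 UMIs, too few for the filter. Of the 49 list genes with enough UMIs in these cells, 6.12% were higher and 16.3% lower, beside 6.12% and 8.75% of all genes. Tyrobp, with 311 UMIs in BM only and 3 in BM + Spl, was among the lower ones.

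Between NKT2 and NKT1 gates 4.17% of the list was higher and 29.2% lower in C57BL/6, 8% and 36% in BM only, and 8.16% and 26.5% in BM + Spl. The shares of all genes were 9.99% and 12.1%, 11.3% and 15.5%, and 10.1% and 15.1%. The largest differences toward NKT2 were Themis (1.94) and Cd5 (0.83) in C57BL/6, Themis (2.27) and Cd5 (1.05) in BM only, and Tcrg-C4 (1.13) and Csk (0.72) in BM + Spl, where Themis lay at -1.11. Toward NKT1 they were Ptpn22 (-1.92) and Rasgrp1 (-1.46) in C57BL/6, Tyrobp (-5.65) and Ubash3a (-2.33) in BM only, and Tyrobp (-5.00) and Ubash3a (-3.03) in BM + Spl. Most Tyrobp UMIs of the BM + Spl NKT1 gate came from its 13 cells without a CD3 UMI, at 2028 CPM. Its iNKT V beta cells held 3 of 204. Most assigned cells of this NKT1 gate had another V beta, so its differences from NKT2 mix V beta classes. Themis stood lower in its iNKT V beta cells than over the whole gate, as given above. Between NKT2-gated and NKT1-gated iNKT V beta cells of BM + Spl, 0 of 6 kinases with enough UMIs were past 1.5-fold. Over the whole gates 2 of 6 were higher.

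The genes most like the CD3 chains were sought over 26 gated subsets of at least 50 cells, among 6487 genes, on log2(CPM + 1) centred within each library. The points share libraries and 4 of them are not T cells, which alone separates T cell genes. The 5 closest to summed CD3 were Lck (r = 0.99), Zap70 (0.98), the small GTPase gene Rab37 (0.97), the adaptor Skap1 (0.97) and Klk8 (0.97). Over the 22 T cell subsets Lck had 0.92, Zap70 0.78, Rab37 0.74, Skap1 0.70 and Klk8 0.77, and among members Cd247 had 0.68, Trac 0.84, Trbc2 0.59, Trbc1 0.36 and Fcer1g -0.06. Fcer1g was closest to Tmed5 (0.84, and 0.69 over T cell subsets), Hhex (0.83 and 0.77), Kctd12 (0.82 and 0.72), Ly6c2 (0.80 and 0.59) and Evi2a (0.80 and 0.65). Its r with Cd247 was -0.74, and -0.55 over the T cell subsets.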

How the data were processed

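The authors aligned reads of 3 droplet libraries to mm10 with Cell Ranger and deposited raw matrices, with a UMI count for every pair of gene and called cell. The matrix headers name Cell Ranger 3.0.2 for C57BL/6 and 7.0.0 for both transplant libraries, the study's methods name another version, and the labels' notes name Seurat 4.0.2. The counts were used as deposited, with the study's cell filter, which left other numbers of cells than the study states. No doublet caller was run, and doublets were kept.

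From the counts, summed UMIs per gated subset were divided by all UMIs of the subset over the shared genes (CPM). Ratios carry the exact conditional interval of 2 Poisson counts, levels exact Poisson intervals and shares Clopper-Pearson intervals. UMIs of cells from 1 library are not replicates, so no test was run. Gates needed 3 UMIs of the NKT1 or NKT2 list and 2 times the other list, and 2 or 3 detected markers elsewhere. A gene was called past 1.5-fold among genes with at least 200 UMIs in the pair compared. Cells to be compared by share were thinned to 3000 UMIs, which leaves out 18, 1212 and 749 shallower cells of C57BL/6, BM only and BM + Spl.

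Named genes were the 9 members, list genes past the fold between the transplant libraries in NKT1-gated or NKT2-gated cells, the 2 largest differences each way between gates, and the 5 genes most like CD3 or Fcer1g. Members and lists were chosen with earlier results of these data known. Lck, Zap70 and context genes such as Cd4, Lag3 and Tyrobp were named beside the rule, after their values were seen. 8 alternatives were planned and 3 were added after seeing the data. Ratio and interval code was tested on simulated data. Python 3.11.15, numpy 2.4.6, scipy 1.17.1 and pandas 2.3.3 were used.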

Additional observations from a re-analysis of the deposited data

Results flagged for a closer look

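The Cd247 difference between NKT2-gated and NKT1-gated cells went one way in C57BL/6 and BM only and the other way in BM + Spl. The log2 ratio of CPM, NKT2 over NKT1, was 0.83 in C57BL/6, 0.71 in BM only and -0.14 in BM + Spl. It was noted because BM + Spl has the opposite sign, and the difference between libraries was not tested. In iNKT V beta cells alone, which can include other T cells, the ratio was 0.75 in BM only and -0.00 in BM + Spl.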

How the results depend on the processing

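No paired analysis was possible because each condition has 1 library, and for the same reason none was left out. Over 646 alternative values of ratios, 502 stayed within the counting interval, 142 moved past it and 2 were counted as reversed. Those 2 belong to ratios past 1.5-fold in the main values. Smaller ratios also changed sign without being counted as reversed, such as summed CD3 in NKT1 and Fcer1g in NKT17. Of 117 shares, 95 stayed within the counting interval. All 53 counts over the signaling list stayed within 1.5 times. The causes of these moves were not tested.

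Between BM + Spl and BM only, the NKT1 ratio of Cd247 was 0.74 in iNKT V beta cells. That of Fcer1g was -1.17 in thinned cells, -0.96 with a stricter gate, -1.72 as a mean over cells, -1.66 in iNKT V beta cells and -2.11 without cells that have no CD3 UMI, and summed CD3 was -0.044 with median-ratio scaling, 0.031 as a mean over cells and 0.020 in iNKT V beta cells. Fcer1g changed sign in NKT2 with thinned cells (0.22) and in Treg with iNKT V beta cells (0.40), and in NKT2 it was -0.11 with a stricter gate. Trbc1 in NKT1 dropped under 1.5-fold with a stricter gate (0.55) and as a mean over cells (0.51).

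Between NKT2 and NKT1, Cd3e without ribosomal, mitochondrial and V, D and J genes was -0.55 in C57BL/6, -0.64 in BM only and -0.49 in BM + Spl, so under 1.5-fold in the first and last. In C57BL/6 it was -0.69 both with thinned cells and with a stricter gate, in BM only -0.69 and -0.79, and in BM + Spl -0.68 with a stricter gate and -0.68 in iNKT V beta cells. Cd247 was 0.96 in C57BL/6 with a stricter gate, and in BM + Spl -0.027 without those genes and -0.0024 in iNKT V beta cells.

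The Trbc1 share as a mean over cells was 31.7% in C57BL/6, 15.4% in BM only and 15.3% in BM + Spl. In BM only it was 16.7% in thinned cells, 17.5% without the 5% of cells with the most UMIs and 19.0% in iNKT V beta cells, and in BM + Spl 19.6% in iNKT V beta cells. Cells with Trdc were 0.249% in C57BL/6 when thinned and 0.283% in BM only among iNKT V beta cells, and Fcer1g cells in NKT1 of BM + Spl were 8.56% among iNKT V beta cells. Trdc, with 52 UMIs or fewer in all T cells of each transplant library, and Fcer1g in Treg, with 26 and 15, rest on few counts.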
